A study of Homo sapiens with 16 samples.

Results

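The comparison described here set 3 libraries of pancreatic progenitor cells treated with latrunculin B for 6 h against 3 control libraries of 0 h, 6 of the 16 libraries of the series. The members were chosen by the sample labels, and the response was described across the 16705 genes that passed a filter on low counts. The cells came from an NGN3-GFP reporter line derived from the human embryonic stem cell line SA121 and carried GFP at the locus of NEUROG3, the transcription factor that starts endocrine differentiation. They had been differentiated in culture to pancreatic progenitors, and 0.5 µM latrunculin B was given from day 19. The control 0 h libraries carry a DMSO tag in their labels, whereas the design text places their harvest before the treatment. The other libraries are latrunculin B for 3 h (n = 3), 12 h (n = 2) and 24 h (n = 3), and DMSO control at 24 h (n = 2). No vehicle library of 6 h was analysed, so the drug and the 6 h in culture cannot be told apart against the 0 h control. The DMSO control of 24 h was therefore used as another reference. All libraries come from a single reporter line, and no label says that replicates were separate differentiations, so that the p-values measure the spread between these libraries only.

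Latrunculin B binds monomeric actin and keeps it from joining filaments. Monomeric actin retains the MRTF coactivators in the cytoplasm, and actin tension keeps YAP and TAZ in the nucleus, so that the target genes of SRF with MRTF and those of TEAD with YAP are textbook readouts of the state of the filaments. In the embryonic pancreas, bipotent progenitors that express PDX1, SOX9 and NKX6-1 either enter the endocrine lineage through NEUROG3 or become duct, and actin tension and YAP activity are known to bear on that choice.

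The 6 libraries held between 23831223 and 30588149 estimated reads, matched to a gene or not, and 15177 to 15786 genes reached 10 reads in each. Pearson correlations of log2 CPM (read counts scaled to the size of the library) lay between 0.982 and 0.985 within the groups and between 0.964 and 0.971 across them. The progenitor markers were present at both times. The summed level of PDX1, NKX6-1, SOX9, ONECUT1, FOXA2, GATA6 and HNF4A was 489 to 505 TPM (transcript abundance per length, scaled to the library) at 0 h and 473 to 484 TPM at 6 h. Markers of other cell types were also measured. Liver-type markers (ALB, AFP, APOA1, TTR, SERPINA1) summed to 1060 to 1310 TPM at 0 h and 1130 to 1270 TPM at 6 h, mesenchymal markers to 65.7 to 111 and 79.3 to 94.4 TPM, and endothelial markers to at most 3.16 TPM in any of the 6 libraries, with TEK and CDH5 under 1 TPM in all of them. The sums of the progenitor markers did not overlap between the times, nor did those of intestinal, pluripotent, endocrine and neural markers. Of all genes tested, 29.5% had every 6 h library above those of 0 h in CPM, and 27.9% had every one below. Intestinal markers (CDX2, MUC2, LYZ, OLFM4) summed to 392 to 524 TPM at 0 h and 1190 to 1260 TPM at 6 h. LYZ, which alone among them passed the test, went from a mean of 390 to 1190 TPM. CDX2 went the other way, from 57.5 to 39.4 TPM, as did OLFM4, from 10.3 to 6.76 TPM. Markers of pluripotent cells (POU5F1, NANOG, LIN28A, DPPA4) summed to 173 to 187 TPM at 0 h and 94.2 to 96.1 TPM at 6 h. Nearly all of that sum was LIN28A, with means of 176 and 93.2 TPM, which alone among them passed the test. POU5F1 had means of 1.40 and 1.29 TPM. Endocrine markers (NEUROG3, NEUROD1, CHGA, INS, GCG, SST) summed to 57.8 to 71.8 and 172 to 313 TPM. Most of that sum was SST, with means of 44.1 and 191 TPM, and CHGA, with means of 19.0 and 33.4 TPM. Neural markers (SOX1, NEUROG2, MAP2, STMN2) summed to 5.70 to 7.84 TPM at 0 h and 3.61 to 5.63 TPM at 6 h. MUC2 and NANOG were under 1 TPM in all 6 libraries, as were NEUROD1, GCG, SOX1 and NEUROG2. NEUROD1 was called upwards, but it lost its call in 8 of 17 alternatives. In bulk RNA, a change in the number of cells of a type and a change in the RNA of each cell cannot be told apart.

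At 6 h, 7230 of 16705 genes were called at an adjusted p below 0.05 (edgeR's quasi-likelihood test with Benjamini-Hochberg adjustment), which is 43.3% of the genes tested. Of these, 3819 rose (22.9% of genes tested) and 3411 fell (20.4%). The counts in the gene lists below stand beside these shares and were not matched for level of expression. Most changes were small: 1033 called genes (6.18%) changed by at least 1 on the log2 scale, 453 upwards and 580 downwards. A log2 change of at least 2 was reached by 109 genes that rose and 76 that fell, and one of at least 3 by 34 and 24. The split by direction depended on the scaling. Without the correction for library composition, 37.7% of the calls were upwards, against 52.8% with it, since leaving it out moved the median of all genes by -0.0912 on the log2 scale.

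Direction was also tied to the level of expression. The genes were divided by mean level into 5 classes of 3341 genes. In the highest class (mean log2 CPM of at least 6.10), 1593 genes rose and 445 fell. In the class above the lowest (mean log2 CPM of 0.515 to 3.30), 344 rose and 883 fell. Without scaling the corresponding numbers were 1117 and 689 in the highest class and 273 and 1055 in the other. Of 367 long non-coding RNA genes tested, 19 rose and 76 fell, and of 145 transcribed processed pseudogenes, 2 rose and 25 fell, whereas 3746 of 15399 protein-coding genes rose and 3234 fell. The long non-coding RNAs had a median mean log2 CPM of 1.05 and the protein-coding genes one of 4.44, so class and level overlap, and their separate parts were not tested.

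**Figure D1:**
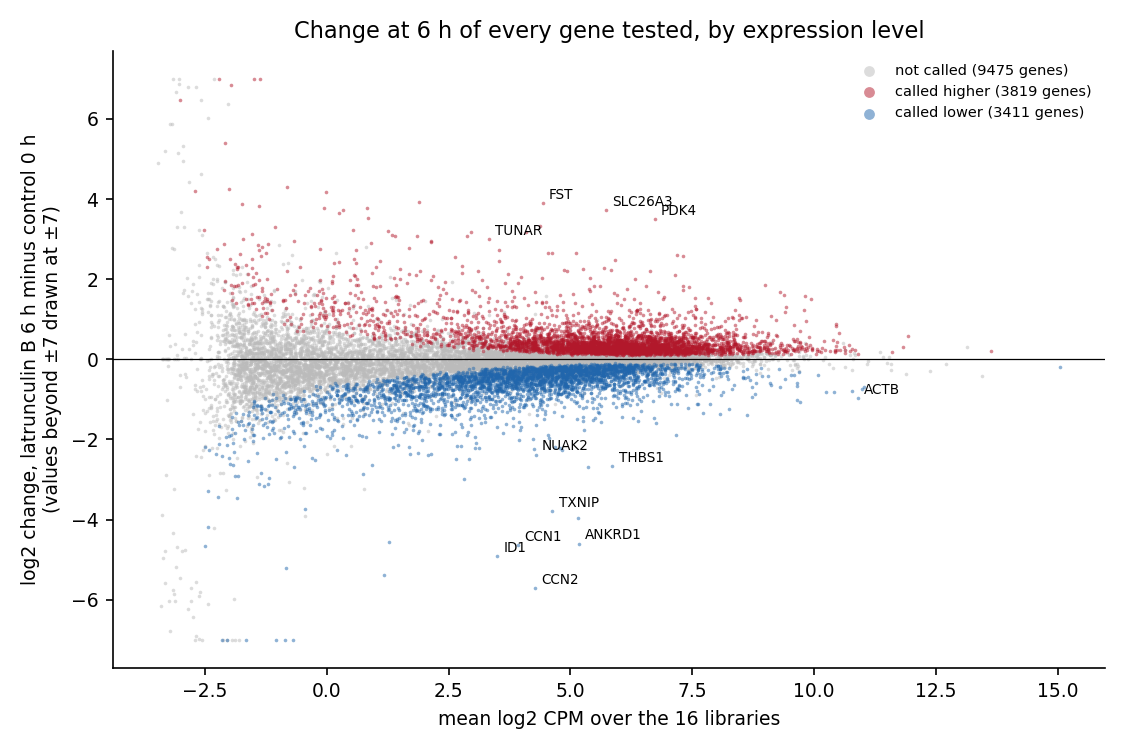
Each point is 1 of the 16705 genes tested, with the mean log2 CPM over the 16 libraries on the x axis and the log2 change at 6 h against control 0 h on the y axis; red and blue points passed an adjusted p of 0.05. The 3819 genes that rose gather at higher expression than the 3411 that fell, and CCN2, at -5.70, is the lowest of the genes labelled; 19 genes beyond a log2 change of 7 in either direction are drawn at the edge.

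The largest falls among well-expressed genes, those with a mean log2 CPM of at least 3, belonged to CCN2, ID1, CCN1, ANKRD1, ID3, TXNIP, ANKRD33B, THBS1, NUAK2 and ARRDC4. CCN2, CCN1, ANKRD1 and NUAK2 are established targets of YAP with TEAD, and the sequences just upstream of ANKRD1, CCN2 and NUAK2 are shown because they hold the TEAD core motif; the promoter of CCN1 was not analysed here. TXNIP, an inhibitor of thioredoxin and of glucose uptake, is shown beside them for the pair of E-box half-sites through which MondoA is known to act on it. The sequences were taken from RefSeq (GRCh38.p14) and run 5′ to 3′ along the gene's strand over the 250 bases that end just before its start. Capitals mark the TEAD core GGAATG on either strand in the case of ANKRD1, CCN2 and NUAK2, and the pattern CACGNNNNNNNCACG in the case of TXNIP.
ANKRD1, minus strand of chr10:90921088-90921337: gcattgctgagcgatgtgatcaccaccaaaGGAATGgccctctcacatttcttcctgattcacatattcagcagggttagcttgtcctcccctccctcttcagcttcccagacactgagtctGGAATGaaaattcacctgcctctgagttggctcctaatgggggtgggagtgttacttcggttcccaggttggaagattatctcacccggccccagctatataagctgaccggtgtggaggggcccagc
CCN2, minus strand of chr6:131951373-131951622: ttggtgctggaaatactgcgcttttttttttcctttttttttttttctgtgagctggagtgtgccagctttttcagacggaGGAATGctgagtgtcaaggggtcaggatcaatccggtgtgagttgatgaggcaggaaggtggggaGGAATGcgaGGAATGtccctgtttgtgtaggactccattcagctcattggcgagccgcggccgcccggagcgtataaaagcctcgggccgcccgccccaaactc
NUAK2, minus strand of chr1:205321746-205321995: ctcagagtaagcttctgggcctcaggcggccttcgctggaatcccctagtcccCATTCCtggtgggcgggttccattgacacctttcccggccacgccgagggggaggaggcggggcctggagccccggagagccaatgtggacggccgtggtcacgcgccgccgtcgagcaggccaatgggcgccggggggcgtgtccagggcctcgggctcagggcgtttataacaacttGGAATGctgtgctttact
TXNIP, minus strand of chr1:145996580-145996829: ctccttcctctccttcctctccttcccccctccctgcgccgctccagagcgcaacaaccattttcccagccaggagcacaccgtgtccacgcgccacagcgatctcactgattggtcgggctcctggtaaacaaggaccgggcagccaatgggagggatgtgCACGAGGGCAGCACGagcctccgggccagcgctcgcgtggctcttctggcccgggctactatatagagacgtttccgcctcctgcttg

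CCN2 held 3 TEAD cores in this window, ANKRD1 held 2 and NUAK2 held 2. Across the 12198 tested genes with a RefSeq promoter of 300 bases (250 before the start and 50 after), 10.9% held the TEAD core on either strand. The share was 17.0% of 395 promoters whose gene fell by at least 1 on the log2 scale and 9.83% of 295 whose gene rose by at least 1. The CArG box, the binding sequence of SRF, stood in 1.13% of all these promoters, in 3.29% of those of genes that fell by at least 1 and in 1.69% of those of genes that rose by at least 1. The E-box pair CACGNNNNNNNCACG was found in 0.894% of all promoters, in 0.506% of those with such a fall and in 0.678% of those with such a rise. These shares describe letters in a window, and overlaps between the motifs were counted under each.

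The values of these genes separated the groups without overlap, a condition under which they were chosen. CCN2, a secreted matricellular protein, stood at 166, 178 and 178 CPM in the 3 control 0 h libraries and at 3.77, 3.18 and 3.11 CPM at 6 h, a log2 change of -5.70 (SE 0.397, edgeR adjusted p = 2.74e-07). The 6 h libraries were all below 4 CPM, a fitted fold of 51.8. ID1, an inhibitor of basic helix-loop-helix factors, was at 121, 110 and 87.1 CPM at 0 h and at 3.96, 3.25 and 3.32 CPM at 6 h. CCN1, the close relative of CCN2, went from 77.5, 82.6 and 81.1 CPM to 3.24, 3.33 and 3.11 CPM. ANKRD1, an ankyrin repeat protein of the nucleus and the sarcomere, went from 264, 293 and 279 CPM to 11.4, 11.8 and 11.2 CPM. TXNIP went from 101, 95.9 and 93.6 CPM to 7.31, 6.89 and 6.72 CPM, and its arrestin-family relative ARRDC4 from 64.2, 60.5 and 58.7 CPM to 12.2, 13.8 and 12.4 CPM.

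The largest rises under the same conditions belonged to FST, SLC26A3, PDK4, RIMKLA, ASS1, TUNAR, BEX5, BRINP1, RFX6 and RGS4. FST, which binds and neutralises activin (5:53480626-53487134 in GRCh38, ENSG00000134363.12), stood at 6.34, 5.86 and 5.98 CPM at 0 h and at 68.4, 90.5 and 113 CPM at 6 h (log2 change 3.90, SE 0.323, edgeR adjusted p = 1.03e-06). SLC26A3, a chloride and bicarbonate exchanger, was at 12.6, 15.1 and 17.9 CPM and then at 176, 201 and 224 CPM. PDK4, the kinase that inactivates pyruvate dehydrogenase, was at 34.2, 30.2 and 33.2 CPM and then at 312, 393 and 392 CPM. The fitted folds of FST, SLC26A3 and PDK4 were 14.9, 13.2 and 11.2, and in each of them the 6 h libraries all lay far above those of 0 h. RIMKLA, which makes N-acetylaspartylglutamate, went from 5.22, 4.96 and 6.24 CPM to 51.8, 55.6 and 58.2 CPM, and ASS1, the urea cycle enzyme that forms argininosuccinate, from 4.30, 4.26 and 5.01 CPM to 38.5, 39.1 and 45.1 CPM.

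**Figure D2:**
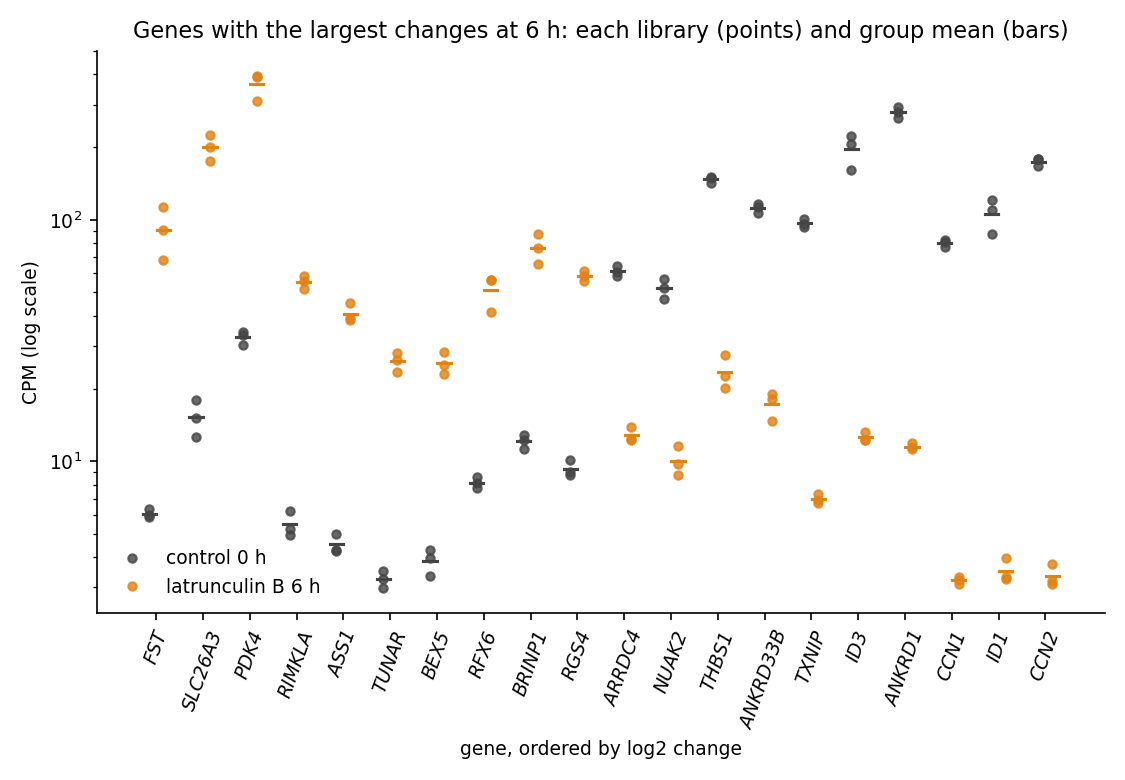
CPM on a log axis of the 10 genes with the largest rises and the 10 with the largest falls in each control 0 h library (grey) and each latrunculin B 6 h library (orange), with the group means as bars. The groups do not overlap in any of the 20 genes, which was a condition for drawing them; FST goes from 5.86 to 6.34 CPM at 0 h to 68.4 to 113 CPM at 6 h.

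The smallest p-values outside these 20 genes came from changes of moderate size with little spread between libraries. AMOTL2, an angiomotin relative that binds YAP, was at 281, 299 and 290 CPM at 0 h and at 78.8, 74.8 and 81.2 CPM at 6 h (edgeR adjusted p = 2.15e-09). PAK3, a kinase activated by the GTPases CDC42 and RAC1, went from 8.05, 9.08 and 9.37 CPM to 27.9, 29.5 and 28.6 CPM. ITGA6, a subunit of laminin-binding integrins, rose from 216, 197 and 210 CPM to 399, 402 and 410 CPM. SGPP2, a sphingosine-1-phosphate phosphatase, and FAM13B rose by 2.59 and 1.24. TMEM200B, the Golgi mannosidase MAN1C1, the mitochondrial protease OMA1 and TBCK completed the falls, at -2.23, -2.21, -1.61 and -1.43.

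Of 27 listed SRF-MRTF targets, 22 fell and 1 rose, with a median log2 change of -0.66 against -0.01 for all genes tested. ACTB, cytoplasmic beta-actin, was at 2503.2, 2659.5 and 2528.5 CPM at 0 h and at 1310.1, 1302.3 and 1333.9 CPM at 6 h (log2 change -0.96, SE 0.0772, edgeR adjusted p = 8.3e-07). ACTG1, its gamma counterpart, went from 2347, 2327 and 2349 CPM to 1410, 1330 and 1332 CPM. Together these actin genes made up 0.476% ± 0.00175 (SD, n = 3) of the TPM at 0 h, 0.310% ± 0.0294 at 3 h and 0.241% ± 0.00884 at 6 h. As close paralogs they share reads, and the split between them is an estimate of the quantification. The largest falls of the list belonged to CNN1 (calponin, -1.64), TPM1 (tropomyosin, -1.25) and TAGLN (transgelin, -1.20), and VCL, the adhesion protein vinculin, went from 359, 357 and 351 CPM to 160, 162 and 166 CPM. FHL1, a LIM-domain protein, rose by 1.42 from 15.1, 18.6 and 17.5 CPM to 38.7, 44.5 and 53.8 CPM.

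Of 22 listed YAP-TEAD targets, 13 fell and 4 rose, with a median of -0.81. Beyond CCN2, CCN1 and ANKRD1, the falls included LATS2, a kinase that restrains YAP (-1.17), and TEAD1 itself (-0.90). IGFBP3, which binds insulin-like growth factors, rose against the list from 504, 414 and 420 CPM to 963.4, 1072.5 and 1248.1 CPM, and F3, tissue factor, FJX1 and ASAP1 rose by 1.07, 0.79 and 0.68. CCN1 and CCN2 are among the genes whose behaviour in these libraries was known when the lists were chosen.

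The other parts of the cytoskeleton and of adhesion moved in different ways. Of 22 focal adhesion genes, 12 fell and 5 rose. TNS1 (tensin, -1.60), TLN2 (the talin of striated muscle and brain, -1.44) and FERMT1 (kindlin, -1.31) fell, whereas the scaffold NEDD9 rose by 0.61. Among 30 genes of actin monomers, nucleation and turnover, 8 rose and 8 fell, with a median of 0.04. Without scaling, 3 of them rose and 11 fell, and the median was -0.05. The formin DIAPH1 rose by 0.74, while DIAPH3, of the same family, fell by 1.15. Of 15 tubulin genes, 7 rose and 1 fell. TUBB3, a tubulin of neurons and endocrine cells, was at 250, 263 and 276 CPM at 0 h and at 602, 528 and 559 CPM at 6 h. Tubulins are close paralogs, so the assignment of reads among them is uncertain.

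Keratins split by member. KRT8 and KRT18, the paired keratins of simple epithelia, fell from 3074.1, 3053.7 and 2888.0 CPM to 1823.0, 1725.6 and 1812.2 CPM and from 1430.9, 1421.2 and 1323.4 CPM to 645.6, 681.4 and 683.7 CPM. KRT19, a marker of ducts, rose from 686, 701 and 683 CPM to 989, 912 and 956 CPM. Among 29 genes of junctions and polarity, 10 rose and 9 fell. CLDN4, a claudin of tight junctions, fell by 0.92 and DSC2, a desmosomal cadherin, rose by 0.79. Of 19 integrin genes, 2 rose and 4 fell, led by ITGA6 (0.96) and ITGB6 (-0.96). The other rise, ITGA7 (0.31), lost its call in 16 of 17 alternatives, with log2 changes of 0.14 to 0.34 and adjusted p up to 0.523. Of 22 basement membrane genes, LAMA1 rose by 0.24 and LAMA5 fell by 0.48, and the other 20 were not called.

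Of 20 genes of the ID and BMP-SMAD group, 8 fell and 4 rose. ID3 went from 221, 205 and 160 CPM to 13.3, 12.2 and 12.2 CPM. SMAD7, which is induced by this pathway and inhibits it, fell by 1.82 and the ligand BMP2 by 1.59, from 212, 213 and 214 CPM to 71.6, 70.2 and 70.1 CPM. The receptor BMPR1B rose by 1.48. In the TGF-beta and activin group, 10 of 24 genes rose and 4 fell. Beside FST, the activin subunit gene INHBB rose from 1.36, 0.972 and 1.15 CPM to 9.48, 6.81 and 7.42 CPM, and the activin receptor gene ACVR2A from 24.4, 22.7 and 26.2 CPM to 83.2, 84.2 and 80.7 CPM. INHBA, which encodes another activin subunit, fell by 0.93.

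Genes of the WNT pathway rose in 8 cases of 28 and fell in 6, and the median of 0.05 turned to -0.04 without scaling. The genes with the largest rises were SP5, LGR5 and NKD1, which are known targets or feedback regulators of beta-catenin signalling. LGR5, a receptor of R-spondins, was at 0.438, 0.201 and 0.424 CPM at 0 h and at 3.12, 3.52 and 3.23 CPM at 6 h. SP5, a transcription factor, went from 0.120, 0.168 and 0.212 CPM to 1.98, 2.16 and 2.24 CPM, and DKK1, a secreted inhibitor of the pathway, rose by 1.85. These genes remained at low levels. The ligand genes WNT2B (-1.84) and WNT7B (-1.02) fell.

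Of 24 Notch pathway genes, 6 rose and 6 fell, with a median of 0.08 that turned to -0.01 without scaling. DLL4, a Notch ligand, rose from 2.27, 2.11 and 2.38 CPM to 18.9, 19.1 and 19.4 CPM (edgeR adjusted p = 2.01e-08). HEYL, a transcription factor induced by Notch, fell by 2.18 at a low level, from 1.036, 1.407 and 1.315 CPM to 0.343, 0.151 and 0.332 CPM. Its log2 change was -2.39 to -0.406 over the alternatives. HES4 fell by 0.97. MAML2, a coactivator of the Notch transcription complex, went from 27.3, 22.95 and 24.56 CPM to 6.585, 6.584 and 5.472 CPM. HES1, the effector that represses NEUROG3 in the developing pancreas, was not called.

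Of 24 receptor tyrosine kinases, 10 rose and 8 fell. MET, the receptor of hepatocyte growth factor, rose from 35.4, 29.5 and 32.1 CPM to 175, 182 and 181 CPM. EGFR rose from 252, 226 and 260 CPM to 552, 582 and 612 CPM, and the ephrin receptor gene EPHA4 by 1.62. FGFR3 fell by 1.11. Among 25 immediate early genes, 13 rose and 5 fell. MYC went from 16.7, 16.4 and 16.5 CPM to 70.2, 80.3 and 87.0 CPM, SGK1, a kinase under insulin and glucocorticoid control, from 91.1, 94.9 and 101 CPM to 298, 328 and 335 CPM, and EGR2 rose by 2.86 at a low level. EGR1 fell by 0.54. In the cAMP group, 13 of 27 genes rose and 5 fell, with rises of the salt-inducible kinases SIK1 (1.73), SIK3 (1.12) and SIK2 (1.05) and of the phosphodiesterases PDE10A (1.53) and PDE4D (1.38).

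NF-kB target genes fell. Of 15 tested, 11 fell and 1 rose (NFKB2, by 0.34, a call lost without scaling), with a median of -0.64 that became -0.60 against the control of 24 h. CCL2, a chemokine that draws monocytes, was at 21.7, 21.2 and 19.6 CPM at 0 h and at 2.55, 2.99 and 2.32 CPM at 6 h (log2 change -2.99, SE 0.183). CXCL1, which draws neutrophils, went from 8.17, 9.18 and 9.12 CPM to 1.90, 1.55 and 1.66 CPM. TNFAIP2, CXCL8, CXCL2 and ICAM1 fell by 1.55, 1.40, 1.19 and 1.02.

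**Figure D3:**
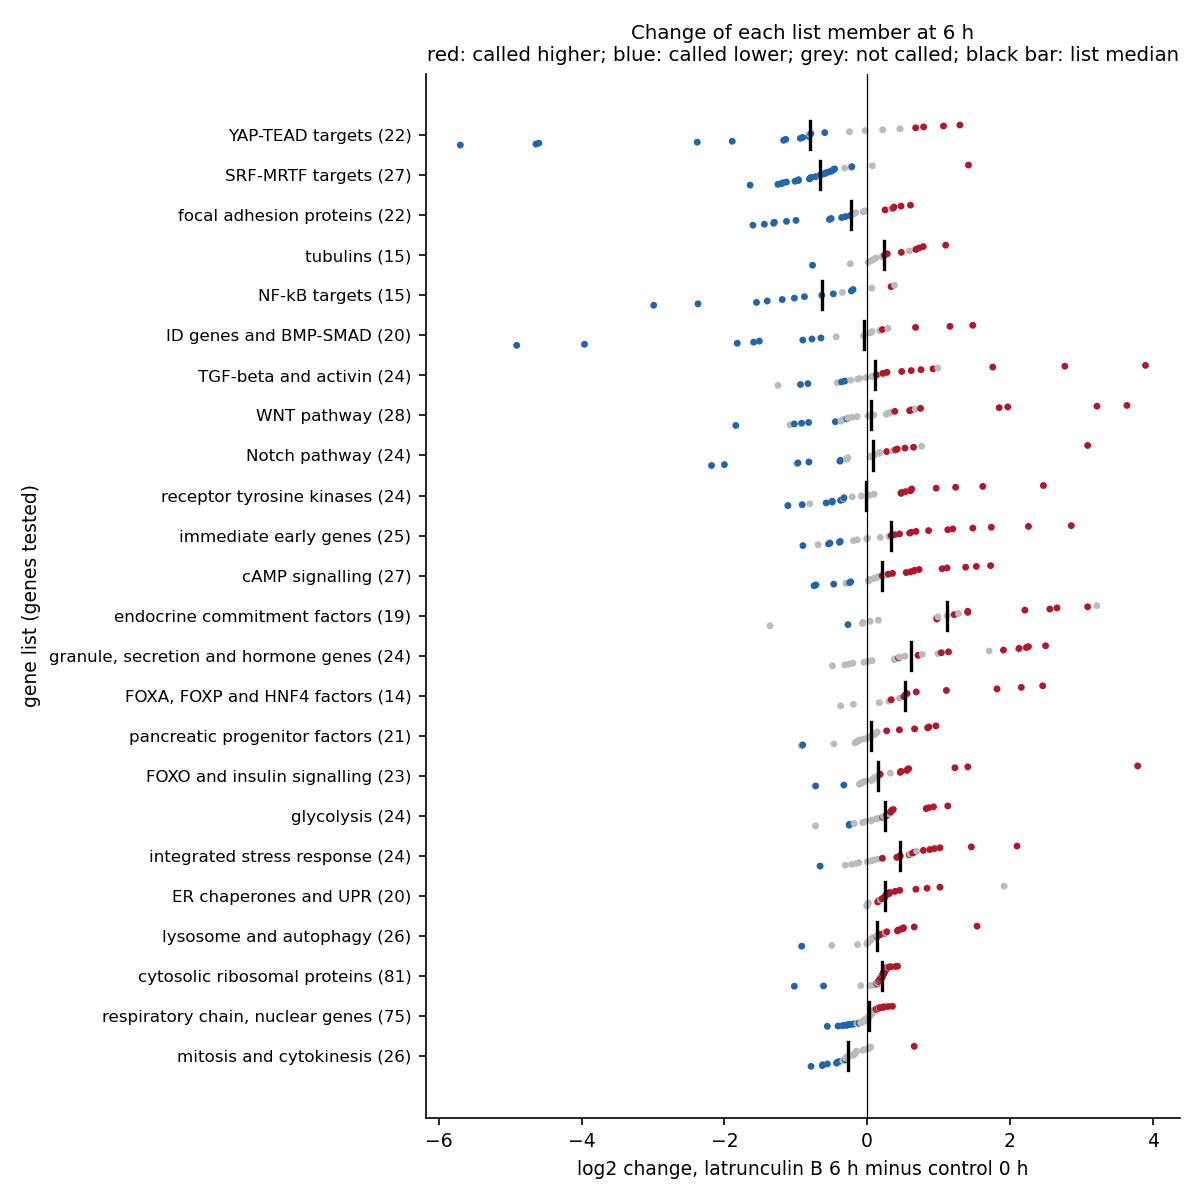
Each point is a gene of 1 of 24 lists, at its log2 change at 6 h against control 0 h; red points passed the test upwards, blue ones downwards, grey ones did not pass, and black bars are list medians. The SRF-MRTF and NF-kB targets lie mostly below 0, with medians of -0.66 and -0.64, and the endocrine commitment factors mostly above it, with a median of 1.12.

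Of 19 listed endocrine commitment factors, 9 rose at 6 h, 1 fell and 9 were not called. NEUROG3 was at 0.438, 0.603 and 1.36 CPM at 0 h and at 3.27, 3.41 and 4.23 CPM at 6 h (log2 change 2.21, SE 0.429, edgeR adjusted p = 0.00101). INSM1, a zinc finger factor downstream of NEUROG3, went from 0.996, 0.871 and 1.70 CPM to 6.01, 6.32 and 8.42 CPM. NKX2-2, a homeodomain factor of islet cells, went from 0.239, 0.402 and 0.467 CPM to 2.09, 2.99 and 4.48 CPM, and RFX6, a factor upstream of islet maturation, from 8.57, 8.14 and 7.72 CPM to 41.6, 56.2 and 56.2 CPM. SOX4 and SOX11, factors of the SOXC group that act in endocrine differentiation, rose by 0.98 and 0.98 from high levels, SOX4 from 380, 385 and 410 CPM to 793, 768 and 749 CPM. RFX3 fell by 0.27. RFX6, FST, PDK4, MET, RGS4, FOXA3, FOXP1 and DDIT4 belong to a set that the study selected on these libraries, so their changes are not independent evidence.

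Against the DMSO control of 24 h, 7 of the 19 factors rose and 1 fell, and the median was 0.34 in place of 1.12. RFX6 rose by 2.11 and INSM1 by 1.12 (edgeR adjusted p = 0.0299) in that comparison, but for NEUROG3 the log2 change was 0.71 (SE 0.400, edgeR adjusted p = 0.184), and for PAX4 it turned from 1.41 to -0.13 (adjusted p = 0.846). The means of NEUROG3 were 0.800 CPM at 0 h, 3.64 CPM at 6 h and 2.21 CPM in the control of 24 h.

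Of 24 genes of granules, secretion and hormones, 9 rose and none fell, and without scaling 9 rose and 1 fell. SST, the somatostatin gene, was at 11.7, 10.3 and 12.2 CPM at 0 h and at 37.8, 46.5 and 76.2 CPM at 6 h, and PCSK2, a prohormone convertase, at 0.478, 0.335 and 0.382 CPM and then 2.28, 1.93 and 2.57 CPM. Against the control of 24 h, 5 genes of this list rose and 1 fell, and for PCSK1 the log2 change went from 2.26 to 0.70 (edgeR adjusted p = 0.24).

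Of 21 progenitor factors tested, 6 rose and TEAD1 fell, with a median of 0.06 that turned to -0.03 without scaling. Without scaling, 5 rose and 5 fell. PDX1 was at 345, 341 and 322 CPM at 0 h and at 304, 288 and 306 CPM at 6 h (log2 change -0.17, edgeR adjusted p = 0.176). SOX9 was at 413, 442 and 409 CPM and at 388, 394 and 395 CPM (log2 change -0.10, adjusted p = 0.315). PDX1 and SOX9 were both called lower in some of the 17 alternatives. NKX6-1 rose by 0.27 (edgeR adjusted p = 0.036), a call lost in 9 of 17 alternatives, where adjusted p reached 0.244, and in 5 of the 6 in which 1 library was left out. GATA4 rose by 0.96, from 103, 93.4 and 94.8 CPM to 194, 171 and 204 CPM, and NR5A2 and PROX1 rose by 0.87 and 0.85.

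Of 14 FOXA, FOXP and HNF4 factors with their epithelial companions, 9 rose and none fell, and 9 rose and none fell against the control of 24 h (1 at an unadjusted edgeR p below 0.05). Without scaling, 8 rose and 2 fell against 0 h. SPDEF, an ETS factor of secretory epithelia, went from 3.63, 4.89 and 4.88 CPM to 25.05, 22.74 and 26.03 CPM. FOXP2 went from 3.67, 3.38 and 3.99 CPM to 17.9, 14.3 and 17.0 CPM, FOXA3 from 25.5, 25.1 and 24.3 CPM to 86.6, 86.1 and 91.7 CPM, and FOXP1 from 89.6, 89.7 and 92.0 CPM to 186, 200 and 199 CPM. Among liver-type serum protein genes, 7 of 18 rose and none fell. APOB, the scaffold of lipoprotein particles, rose from 25.1, 21.4 and 24.3 CPM to 89.6, 109 and 135 CPM, while the liver markers ALB, AFP, APOA1, TTR and SERPINA1 were not called. Against the control of 24 h, 4 genes of that list rose and 2 fell, and its median went from 0.49 to 0.02.

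Of 14 tested genes of pyruvate dehydrogenase and its kinases, 5 rose and 3 fell, a share of calls of 57.1% against 43.3% of all genes tested. Beside PDK4, the kinase gene PDK1 rose by 0.92, whereas PDK3 fell by 0.69 and PDK2 by 0.65. DLAT, the acetyltransferase core of the complex, rose from 175, 179 and 181 CPM to 398, 407 and 403 CPM. Of 22 PPAR and fatty acid oxidation genes, 5 rose and 6 fell, with a median of 0.04. Without scaling, 3 rose and 7 fell, and the median was -0.05. PLIN2, which coats lipid droplets, rose from 26.8, 19.2 and 22.4 CPM to 90.4, 106 and 134 CPM, and ANGPTL4, an inhibitor of lipoprotein lipase, by 1.68. Among 23 genes of FOXO and insulin signalling, 9 rose and 2 fell. FOXO1 went from 49.3, 46.2 and 47.2 CPM to 108, 112 and 114 CPM, PIK3R1, the regulatory subunit of PI3 kinase, from 131, 125 and 142 CPM to 369, 349 and 338 CPM, and IGFBP1, a known FOXO target, rose by 3.79 at a low level.

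In glycolysis, 11 of 24 genes rose and 2 fell, and without scaling 7 rose and 4 fell. SLC2A1, the glucose transporter GLUT1, went from 49.8, 41.9 and 48.9 CPM to 92.1, 94.0 and 121 CPM, and LDHA, lactate dehydrogenase, from 69.5, 48.9 and 68.1 CPM to 87.5, 110 and 157 CPM, with a wide spread at both times. Of 15 hypoxia response genes, 6 rose and 1 fell. Of 75 nuclear genes of the respiratory chain, 10 rose and 11 fell, with a median of 0.03. Without scaling, 3 rose and 20 fell, and the median was -0.06. None of the 13 mitochondrial genes of the chain was called, with a median of -0.22, though 1 fell without scaling. Their summed share of the TPM was 12.9% ± 1.58 (SD, n = 3) at 0 h and 10.9% ± 1.08 at 6 h. In the cholesterol and fatty acid synthesis group, 12 of 24 genes rose and 3 fell, IDI1 by 0.70 upwards and STARD4 by 0.59 downwards.

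Of 24 genes of the integrated stress response, 13 rose and 1 fell, and without scaling 11 rose and 2 fell. DDIT4, an inhibitor of mTORC1, was at 73.7, 64.1 and 68.1 CPM at 0 h and at 261, 278 and 342 CPM at 6 h, CHAC1, which degrades glutathione, rose by 1.46, and ATF4, the factor at the centre of the response, by 0.79. TRIB3, an ATF4 target, fell by 0.66. Of 20 ER chaperone and unfolded protein response genes, 14 rose and none fell, led by XBP1, from 199, 194 and 205 CPM to 371, 393 and 453 CPM. Of 26 lysosome and autophagy genes, 12 rose and 1 fell, and without scaling 7 rose and 2 fell. SQSTM1, the autophagy receptor p62, went from 102, 104 and 96.5 CPM to 302, 295 and 281 CPM.

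Of 81 cytosolic ribosomal protein genes, 61 rose and 2 fell, with a median of 0.21. Without scaling the median was 0.12, and 27 of them rose and 2 fell. Their share of the TPM was 15.4% ± 0.718 (SD, n = 3) at 0 h and 16.5% ± 0.501 at 6 h. The genes that fell were RPL39L (-1.02) and RPS27L (-0.61), paralogs that differ from the canonical subunits. Reads of ribosomal protein genes are shared with many pseudogenes, so their assignment is uncertain. Without scaling, 12 of 35 proteasome subunit genes rose and 3 fell. With it, 19 rose and 1 fell. The gene that fell, PSMB3, was at 39.5, 38.2 and 24.1 CPM in the control 0 h libraries and listed at 0 in all 3 libraries at 6 h and in both DMSO controls of 24 h, so it set the 0 h libraries apart from the others, treated or not. All 16 libraries list the same transcripts with the same lengths, and of 35810 genes PSMB3 was the 1 gene with at least 10 reads in each control 0 h library and under 1 in each of the other 13. Whether the 0 h libraries were quantified in another way was not tested, and a difference of that kind would bear on every comparison with 0 h.

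Cell cycle genes changed direction with the reference. Against control 0 h, 9 of 26 genes of mitosis and cytokinesis fell and 1 rose, with a median of -0.26. Against the DMSO control of 24 h, 14 rose and none fell, with a median of 0.43. Of 26 DNA replication genes, 3 rose and 4 fell against 0 h (median -0.15) and 14 rose and 2 fell against the control of 24 h (median 0.51). NUSAP1, a spindle protein, had means of 15.7 CPM at 0 h, 9.08 CPM at 6 h and 6.90 CPM in the control of 24 h. AURKA, a mitotic kinase, rose against both controls, by 0.66 and by 1.26. CCND1, the D-type cyclin of the G1 phase, fell against both, by 0.69 and by 0.46, from 2806.5, 2793.4 and 2685.1 CPM at 0 h to 1620.7, 1700.3 and 1807.9 CPM at 6 h.

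Over all genes, 6904 were called against the DMSO control of 24 h (41.3% of the genes tested), 3750 upwards and 3154 downwards. The 2 control groups differed from each other in 42 genes (0.251%). An unadjusted p below 0.05 was reached by 1414 genes in that comparison, in which the control of 24 h had 2 libraries.

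**Figure D4:**
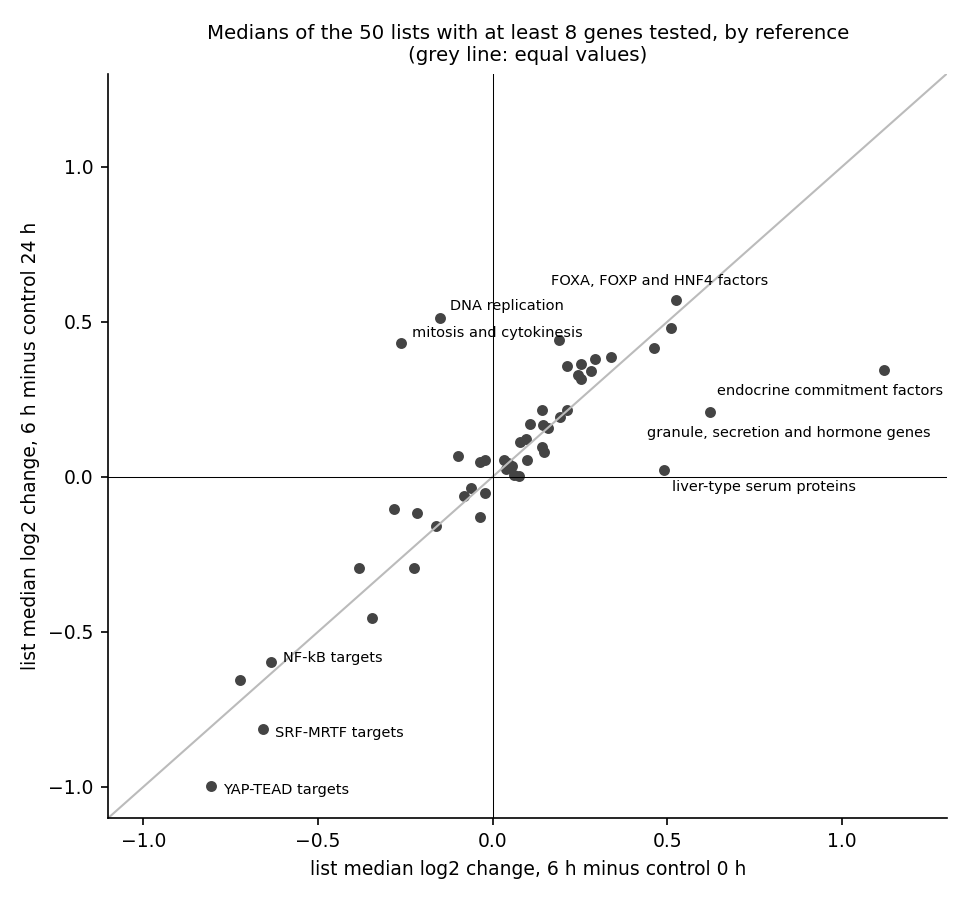
Each point is 1 of the 50 gene lists with at least 8 genes tested, at its median log2 change at 6 h against control 0 h (x axis) and against control 24 h (y axis), 2 comparisons that share the 6 h libraries. DNA replication (-0.15 and 0.51) and mitosis (-0.26 and 0.43) lie on opposite sides of 0, endocrine commitment factors (1.12 and 0.34) lie below the line of equal values, and YAP-TEAD targets (-0.81 and -0.996) and NF-kB targets (-0.64 and -0.60) lie below 0 on both axes.

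The remaining lists changed in smaller numbers or in both directions. Of 17 circadian clock genes, 6 rose and 1 fell. RORA, a nuclear receptor that drives BMAL1, went from 22.5, 24.3 and 25.1 CPM to 90.9, 105 and 97.8 CPM, and BHLHE40, a repressor in the clock, rose by 2.11. Of 15 genes of feedback on receptor tyrosine kinases and ERK, 5 rose and 2 fell. PHLDA1 went from 186, 184 and 198 CPM to 518, 543 and 581 CPM and DUSP4, a phosphatase of ERK, rose by 1.18, while ETV5, a transcription factor induced by ERK, fell by 0.79. Of 15 RGS genes, which shorten signals of G proteins, 4 rose and 3 fell, and RGS4 went from 9.05, 8.78 and 10.1 CPM to 55.8, 58.4 and 61.4 CPM. Of 15 genes of ducts and bicarbonate transport, 3 rose and 3 fell, SLC26A3 at the top and its relative SLC26A9 at the bottom, by 1.89. Of 10 CDK inhibitors and D cyclins, 4 fell and CDKN1B rose by 0.38. Of 11 genes around TXNIP and MondoA, 3 rose and 2 fell, with a median of 0.08. Without scaling, 2 rose and 4 fell, and the median was -0.02. Of 14 heat shock protein genes, 8 rose and 2 fell, but without scaling 3 rose and 3 fell. Of 8 subunits of the TRiC chaperonin, which folds actin and tubulin, 4 rose and none fell, CCT2 by 0.68. Of 15 p53 targets, 3 fell and 1 rose. The 499 numbered zinc finger genes split into 104 that rose and 109 that fell, with 78 and 148 without scaling. In the lists of which no member fell or none was called against 0 h, DESeq2 and an unadjusted p below 0.05 in edgeR gave 0 such genes as well.

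Of 12 mesenchyme genes, PDGFRA fell by 0.37 and the other 11 were not called. CLDN5 was the endothelial gene called out of 6, at 0.456 CPM or less in every library of the 2 groups. Of 8 genes of pluripotent cells, L1TD1 fell by 1.70, LIN28A by 0.82 and ZFP42 rose by 0.86, while NANOG stayed under 1 TPM in all 6 libraries. LIN28A, an RNA-binding protein of early cells, was at 414, 406 and 385 CPM at 0 h and at 221, 230 and 229 CPM at 6 h. Of 5 intestinal genes, LGR5 and LYZ rose and the others were not called, with a list median of -0.315. LYZ, lysozyme, went from 311, 241 and 281 CPM to 887, 876 and 923 CPM. SPINK1, a trypsin inhibitor, was the acinar gene called out of 10 and rose by 0.85. Of 5 neural genes, TUBB3 and DCX, which binds microtubules, rose by 1.10 and 1.06 and NES, the intermediate filament nestin, fell by 0.78. The part of such cells in the other results was not tested.

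Part of the response was still under way between 3 h and 6 h. At 6 h, 3710 genes differed from latrunculin B at 3 h (22.2% of genes tested), 1986 upwards and 1724 downwards. The largest rises since 3 h among well-expressed genes belonged to PAK5 (log2 change 1.93), TENM3 (1.90), SGPP2 (1.89), LMX1B (1.77) and BEX5 (1.68). TENM3, a teneurin of the cell surface, had means of 108 CPM at 0 h, 100.3 CPM at 3 h and 375 CPM at 6 h, so that its rise came after 3 h. The largest falls belonged to PPARA (-1.92), MAML2 (-1.83), SCNN1G (-1.74), MED12L (-1.56) and SAMD4A (-1.56). PPARA, a nuclear receptor for fatty acids, had means of 16.3, 30.6 and 8.06 CPM at 0, 3 and 6 h. Its mean TPM was 13.4 at 0 h and 10.2 at 6 h, and that of 3 h lay between them. The rise at 3 h was thus seen in CPM but not in TPM, and the cause was not tested. Other genes had reached their level by 3 h: PDK4 had means of 400.3 CPM at 3 h and 365 CPM at 6 h (log2 change -0.13, edgeR adjusted p = 0.801), and TXNIP of 5.73 and 6.97 CPM (0.29, adjusted p = 0.683). ACTB continued to fall, by 0.42 (edgeR adjusted p = 0.00183).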

How the data were processed

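RNA was sequenced from polyadenylated transcripts (NEBNext Ultra II, NextSeq 500). The authors deposited, per library, estimated counts and TPM for 177456 transcripts; the submitters' processing notes name Salmon 1.3.0, DESeq2 and hg38, whereas the study's methods describe an alignment and gene counting. The estimated counts were summed per gene through GENCODE release 44, to which 165533 transcripts matched, giving 35810 genes; 2.93 to 3.04% of the reads of the 6 libraries stayed unmatched. Sums were rounded to whole numbers. The authors' comparison table was not used, nor were its 16 columns of per-sample values. Low genes were removed with edgeR's filterByExpr, TMM factors were computed, and edgeR 4.0.16 (R 4.3.3) fitted a quasi-likelihood model to all 16 libraries and 6 groups. Calls took a Benjamini-Hochberg adjusted p below 0.05. Methods were tested on simulated data. CPM used TMM library sizes. Alternatives used DESeq2 1.42.0 and limma 3.58.1 on log2(TPM + 1) and log2(TPM + 0.1).

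Genes were named by rule: the 10 largest rises and falls among called genes with a mean log2 CPM of at least 3 and groups that did not overlap, the 5 of lowest p in each direction, the 3 largest called changes per list and direction, a panel of 15 genes of the lineage, the actins and the study's own genes, and the 5 largest changes against 3 h. Other genes are given for their lists and were picked with their values in view. Members, lists and tests were chosen with earlier results of these data known. A few genes and 1 list are not reported here.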

Additional observations from a re-analysis of the deposited data

Results flagged for a closer look

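A direct test between latrunculin B at 6 h and at 3 h (edgeR's quasi-likelihood test) called 3710 genes. Among the genes with the largest differences, PAK5, TENM3, SGPP2, LMX1B and BEX5 were higher at 6 h than at 3 h by 1.93, 1.90, 1.89, 1.77 and 1.68 on the log2 scale, and in PPARA, MAML2, SCNN1G, MED12L and SAMD4A the log2 differences were -1.92, -1.83, -1.74, -1.56 and -1.56. LMX1B and PPARA were not called against control 0 h, where their log2 changes were 0.70 (edgeR adjusted p = 0.0582) and -1.01 (adjusted p = 0.061). Against the control of 24 h the log2 change of PPARA was -1.46 (edgeR adjusted p = 0.0163). LMX1B was called higher in some of the 17 alternatives. The means of PPARA at 3 h and 6 h lay much closer together in TPM than in CPM. In LMX1B the 3 h libraries, at 4.16 to 5.15 CPM, lay below the 0 h libraries, at 7.57 to 11.2 CPM, and the 6 h libraries lay at 11.4 to 19.5 CPM.

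Within the panel of named genes, NEUROG3 and INSM1 were higher at 6 h than at 3 h by 1.74 and 1.42 on the log2 scale and SOX9 by 0.33, whereas the log2 differences were -1.50 for CCN2, -0.42 for ACTB, -0.30 for ACTG1, -0.32 for NKX6-1 and -0.33 for PDX1. PDX1 and SOX9 therefore differed between the times of treatment while neither was called at 6 h against control 0 h. That lack of a call depended on the processing, since both were called lower in some of the 17 alternatives. Their log2 changes over these were -0.285 to -0.0831 for PDX1 and -0.208 to -0.084 for SOX9.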

How the results depend on the processing

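The count of 7230 genes called at 6 h against 0 h stayed within 1.5 times under every alternative but the demand for a log2 change of at least 1, which left 1033, and it was 5934 to 6618 when 1 library was left out. The share of rises, 52.8%, was 37.7% without scaling, 36.4% on log2(TPM + 1) and 36.6% on log2(TPM + 0.1), and 50.1 to 53.5% when 1 library was left out. The 3710 genes called against 3 h became 298 with a log2 change of at least 1, 1751 on log2(TPM + 1), 1788 on log2(TPM + 0.1), 2031 with an offset for transcript length, and 2549 to 2995 when 1 library was left out. Same-numbered libraries of 6 h and 0 h did not deviate together over all genes (correlations -0.056, 0.011 and -0.035). Those of 6 h and 3 h gave 0.0614, -0.063 and 0.104. All genes, low ones included, weigh equally in these values, so they do not settle whether the numbers pair the libraries. With a replicate block 6863 genes were called against 0 h and 3242 against 3 h. Of 257 named genes called, 191 stayed called in every alternative that could be fitted. With control 24 h as the reference the log2 change turned positive in CENPE (0.198), FDPS (0.0141), GINS2 (0.225) and NUSAP1 (0.392), negative in PAX4 (-0.134), and was 0.0 in PSMB3. It also turned in HSPA4 with the length offset (0.0644) and in PPARGC1B on log2(TPM + 1) (0.00813). The cause was not tested. Of the genes named in the report or above, NKX6-1, NEUROD1, PAX4, LDHA, ITGA7, EGR1, ETV5, CLDN5, NFKB2, GINS2 and PPARGC1B lost their call against 0 h in 4 or more of the 6 cases in which 1 library was left out. STARD4 lost it without control 0 h replicate 1 (edgeR adjusted p = 0.108) and without 6 h replicate 3 (0.098), FDPS without control 0 h replicate 1 (0.148), 6 h replicate 1 (0.0651) and 6 h replicate 3 (0.096), HSPA4 without control 0 h replicate 1 (0.0658), and PDGFRA (0.0664) and SPINK1 (0.0532) without control 0 h replicate 2. Genes near the filter, at under 1 CPM, carry few reads, and their fitted changes are imprecise.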

Other observations

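The genes below lie outside the lists and were chosen after their values were seen, so they stand for themselves and for no group. Of genes known from muscle, ACTC1, cardiac actin, went from 12.2, 9.62 and 12.2 CPM at 0 h to 2.06, 2.23 and 2.28 CPM at 6 h, LMOD1, a leiomodin that nucleates actin filaments, from 5.26, 3.52 and 5.13 CPM to 0.799, 0.643 and 0.788 CPM, and LDB3 and JPH2, proteins of the Z-disc and of the junctional membrane, fell by 2.38 and 2.46 on the log2 scale. Of genes known as interferon-stimulated, all at low levels, IFIT1 went from 1.55, 2.35 and 2.16 CPM to 0.381, 0.341 and 0.332 CPM, IFI44L fell from at most 0.478 CPM to at most 0.0829 CPM and GBP1 from at most 0.636 CPM to at most 0.0761 CPM.

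CGA, the common alpha subunit of the glycoprotein hormones, was at 315, 283 and 240 CPM at 0 h and at 869.3, 1013.0 and 1122.6 CPM at 6 h. PEG10, an imprinted gene of retroviral origin, went from 546, 569 and 603 CPM to 1589.5, 1631.3 and 1655.3 CPM. DRD2, a dopamine receptor, went from 2.27, 2.78 and 2.38 CPM to 17.9, 21.6 and 28.4 CPM, and SYT6, a synaptotagmin, from 1.24, 0.972 and 1.02 CPM to 13.4, 17.2 and 18.9 CPM. PAPPA2, a protease that cleaves IGF-binding proteins, went from 0.438, 0.369 and 0.339 CPM to 4.42, 4.50 and 4.48 CPM. DPF3, a chromatin protein, fell from 5.26, 8.44 and 9.54 CPM to 0.228, 0.492 and 0.249 CPM, TRPV6, an epithelial calcium channel, from 3.83, 5.33 and 5.22 CPM to 0.723, 0.454 and 0.788 CPM, and NXPH2, a neurexophilin, from 18.3, 17.7 and 20.1 CPM to 3.39, 3.48 and 3.11 CPM.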
